A study of Mus musculus with 12 samples.

Results

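The interferon regulatory factor (IRF) genes studied here are Irf1, Irf2, Irf3, Irf4, Irf5, Irf7, Irf8 and Irf9, which are 8 of the 21938 protein-coding genes of the mouse annotation GENCODE M21 on chromosomes 1 to 19, X and Y. They were listed by name and located by that annotation, and every MOF peak in a gene body or within 3 kb of any of its annotated start sites was assigned to the gene. MOF (KAT8) acetylates lysines of histone H4. Its binding was mapped by ChIP-seq, the sequencing of DNA that comes down with an antibody from fixed chromatin, in visceral white adipose tissue of C57BL/6 mice that were 8 weeks old and on a standard diet. Mice had either both copies of the gene that encodes MOF (Mof+/+) or 1 copy (Mof+/-). The labels name no tissue-restricted deletion, and the chromatin came from bulk tissue, so that binding in fewer cells and less binding per cell cannot be told apart. The labels give 2 MOF ChIP libraries per genotype, together with H3 ChIP and input libraries, while the design text speaks of 2 control and 3 Mof+/- animals. The MOF antibody is ab200660 in the labels, but the reporting summary of the study names others. Each genotype was represented here by 1 list of peaks with no value for single libraries. The lists therefore gave no replicate error and allowed no test between genotypes. The signal tracks of the study were not analysed. There were 19773 peaks in Mof+/+ and 731 in Mof+/-. Every peak carries a fold enrichment, the fragments over its summit divided by the background that the peak caller set from input, after 1 is added to both.

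IRF proteins share a DNA-binding domain that recognises GAAA repeats, as in the interferon-stimulated response element (ISRE). IRF3 and IRF7 are activated behind nucleic acid sensors and induce type I interferon. IRF9 is the DNA-binding subunit of the complex that carries the type I interferon signal to the nucleus, while IRF1 activates and IRF2 mostly opposes the same elements. IRF4, IRF5 and IRF8 are best known from lymphocytes, macrophages and dendritic cells. In adipose tissue, IRF4 has been linked to lipolysis, and IRF3 and IRF5 to inflammation of the tissue.

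All 8 genes had an entry in the table of RefSeq promoters (GRCm38.p6, 11 promoters in all, each from 250 bases before to 50 after a start). The 3 promoters below lay inside the 3 strongest promoter peaks of the family and are shown because they hold the family's only matches to an interferon-type element. Annotated UTR bases are left out, and all sequences are on the plus strand, which is the coding strand of these genes. Capitals mark matches on either strand to the gamma-interferon-activated site GAS (TTCNNNGAA), the ISRE (GAAANNGAAA), the ETS-IRF composite (GGAANNGAAA), the ETS core (CCGGAAG) or the Sp core (GGGCGG).
Irf1, chr11:53769764-53770013: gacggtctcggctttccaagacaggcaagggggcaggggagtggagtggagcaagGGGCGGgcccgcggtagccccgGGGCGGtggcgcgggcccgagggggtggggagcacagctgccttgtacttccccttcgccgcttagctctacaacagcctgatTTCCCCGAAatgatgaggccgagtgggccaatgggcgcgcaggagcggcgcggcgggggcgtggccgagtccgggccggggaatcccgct
Irf2, chr8:46739495-46739731: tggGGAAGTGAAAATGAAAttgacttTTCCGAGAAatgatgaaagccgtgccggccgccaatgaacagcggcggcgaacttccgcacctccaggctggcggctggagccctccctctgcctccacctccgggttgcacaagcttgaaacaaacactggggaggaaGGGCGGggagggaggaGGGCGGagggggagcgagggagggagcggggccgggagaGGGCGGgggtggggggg
Irf8, chr8:120736108-120736357: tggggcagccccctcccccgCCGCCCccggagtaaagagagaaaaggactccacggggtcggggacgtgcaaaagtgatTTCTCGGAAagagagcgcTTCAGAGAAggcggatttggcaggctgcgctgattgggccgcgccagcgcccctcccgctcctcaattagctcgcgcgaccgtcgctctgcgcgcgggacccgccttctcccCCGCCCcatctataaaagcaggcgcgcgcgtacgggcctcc

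The Irf1 promoter held 1 GAS match, the kind of element that answers to type II interferon, and the Irf8 promoter held 2. In the Irf2 promoter, a composite and an ISRE match overlapped and a GAS match followed. A GAS match was found in 3 of the 11 member promoters and in 7.74% of 20150 promoters of protein-coding genes. An ISRE match was found in that of Irf2 alone, against 3.42% of promoters, and so was a composite match, against 2.57%. Sp core matches occurred in 8 of the 11, against 47.8% of promoters, and Irf7 was the gene with none. No member promoter held an ETS core, which 11.9% of promoters did. These matches describe letters in a window and are not evidence of binding.

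The windows below reach 50 bases to either side of the summit of the strongest promoter peak of Irf2, Irf8 and Irf4, and the part of that of Irf9 that lies outside annotated UTRs, and are shown because the signal of each peak was highest there. None of them held a motif. The window of Irf5 lay wholly in annotated UTR sequence and that of Irf1 all but 5 bases, and neither is printed.
Irf2, chr8:46741480-46741580: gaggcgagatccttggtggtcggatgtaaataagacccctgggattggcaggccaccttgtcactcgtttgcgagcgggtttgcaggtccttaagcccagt
Irf8, chr8:120736685-120736785: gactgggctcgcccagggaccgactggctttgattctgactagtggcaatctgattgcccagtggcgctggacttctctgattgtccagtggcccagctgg
Irf4, chr13:30749659-30749759: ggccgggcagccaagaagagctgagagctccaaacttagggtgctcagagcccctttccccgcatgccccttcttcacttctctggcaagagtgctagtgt
Irf9, chr14:55604244-55604325: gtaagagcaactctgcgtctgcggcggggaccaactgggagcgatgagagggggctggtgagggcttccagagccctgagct

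Of the summit windows of the 8 genes, 1 held a motif, an Sp core at Irf3. Among the windows of all 19753 Mof+/+ peaks on these chromosomes, 11.6% held an Sp core, 2.48% a GAS, 1.76% an ETS core, 1.10% an ISRE and 1.03% a composite. Chromatin was cut with CviKI-1, which recognises the bases GC flanked by a purine before and a pyrimidine after, and the member windows held 0 to 5 such sites, with a median of 2.5 against 2 over all windows. With 8 windows, these counts do not set the members apart from the list.

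All 8 genes had MOF peaks in Mof+/+ tissue, 48 in all, and all 8 had at least 1 of them within 1 kb of a start site, called a promoter peak here. Among all protein-coding genes, 44.5% had a Mof+/+ peak by the same rule and 41.0% had a promoter peak. Promoter peaks were more frequent at starts rich in CpG. When genes were split into 3 equal classes by the CpG count in the 1001 bases around the 5′ end, 10.5% of the poorest class, 41.4% of the middle class and 71.2% of the richest class had a promoter peak. No member was in the poorest class, 5 were in the middle class (Irf2, Irf3, Irf4, Irf7 and Irf9) and 3 in the richest (Irf1, Irf5 and Irf8). In Mof+/- tissue, 0 of the 8 genes had a peak by either definition. Only 1.89% of protein-coding genes had a Mof+/- peak in the body or within 3 kb of a start, and 1.32% had a Mof+/- promoter peak, so an absence at 8 genes is what most genes of the annotation showed.

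The 48 peaks ranged from 2.26 to 5.73 in fold enrichment, with a median of 3.29 against 3.40 for all Mof+/+ peaks, and 22 of them were above that overall median. The 15 promoter peaks had a median of 3.76 and the 33 others 3.10, of which 10 and 12 were above the overall median. The median width was 1554 bp for promoter peaks, 497 bp for the others and 609 bp for all Mof+/+ peaks. The widest 5% of all Mof+/+ peaks exceeded 2260.8 bp, and 5 member peaks did: 1 each at the starts of Irf1 and Irf2, 1 at the 3′ end of Irf2 and 2 inside Irf8. Summits lay in introns of the gene for 27 peaks, in UTRs for 7, in coding sequence for 3, in exons of noncoding transcripts for 5 and outside the gene for 6. The strongest promoter peak had its summit downstream of the gene's 5′ end in 6 of 8 genes, Irf3 and Irf7 being the exceptions, and this was so for 73.4% of all coding genes with a promoter peak.

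**Figure D1:**
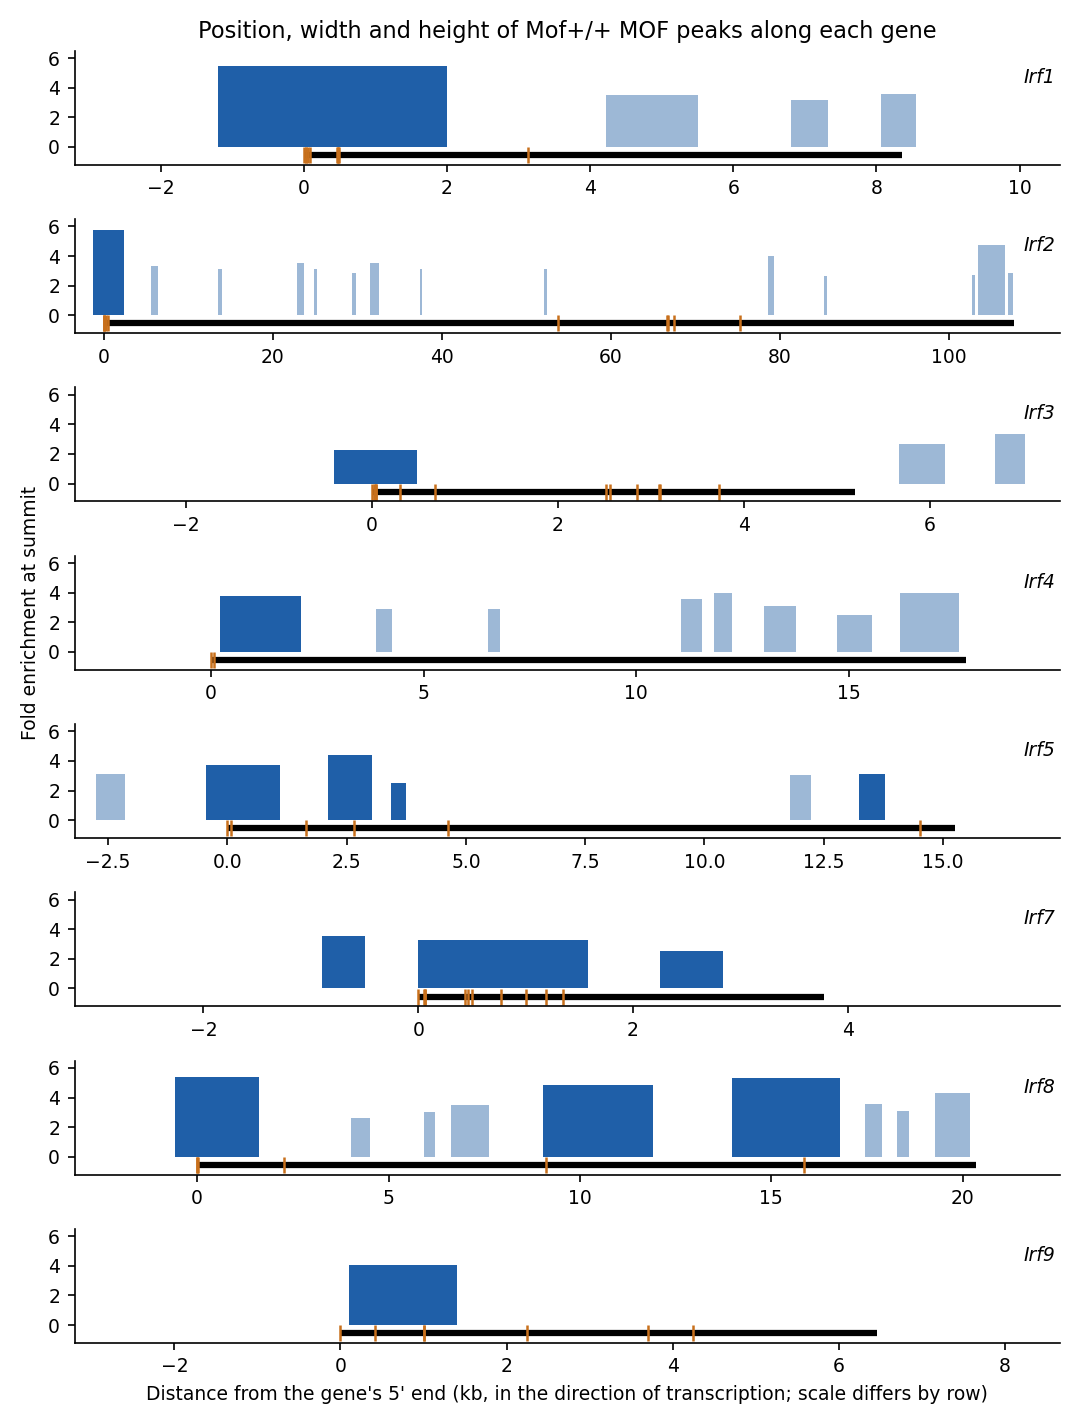
Mof+/+ MOF peaks along each gene. The x axis gives the distance from the gene's 5′ end in kb in the direction of transcription, on a scale that differs between rows, and the y axis gives the fold enrichment at the summit. Each bar spans a peak, dark for peaks within 1 kb of a start site and light for the others. The black line is the gene body and orange ticks are annotated start sites. Irf8 shows 3 tall, wide peaks, each over an annotated start site, and Irf2 shows 1 at each end of the gene. Those inside Irf8 have their summits in exons of noncoding transcripts.

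Single peaks rested on few fragments, 11 to 31 over the summit with a median of 15, where all Mof+/+ peaks had a median of 16. At 25 of the 48 summits the background was at the lowest value of the list, 3.52 fragments. This value was shared by unrelated places and is not a local level of input. Equal fold enrichments at different genes therefore often stood for the same whole number of fragments. Intervals given below are exact 95% Poisson intervals of the fragments and cover counting error alone.

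Irf3 and Irf7, which encode the inducers of interferon genes, had the lowest values for a strongest peak, though these did not differ from those of the other genes beyond counting error. Irf3 (chromosome 7, 44997648 to 45002848) had a promoter peak with a fold enrichment of 2.26 (1.37 to 3.55), from 17 fragments over a background of 6.96. Of all Mof+/+ peaks, 0.319% had a lower fold enrichment. Its summit lay 105 bp upstream of the 5′ end, in a UTR of the divergent neighbour Bcl2l12, a gene of the BCL2 family, and the peak cannot be given to one of the 2 genes. The other 2 peaks counted for Irf3 had fold enrichments of 2.65 and 3.32, and both summits lay beyond its 3′ end in introns of Scaf1. They were counted because start sites are annotated in the 3′ part of Irf3. Irf7 (chromosome 7, 141262706 to 141266481, minus strand) had 3 peaks, all promoter peaks, which surrounded its many start sites. The strongest, 3.54 (2.08 to 5.69), had its summit 867 bp upstream of the 5′ end. The widest, 1580 bp, began beside the 5′ end and ran into the gene with a fold enrichment of 3.27. The third reached 2.56 over coding sequence.

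Irf9, which encodes the DNA-binding subunit of the interferon-activated complex (chromosome 14, 55603571 to 55610030), had the simplest pattern of the family. It had 1 peak, of 1304 bp, with a fold enrichment of 4.09 (2.65 to 6.05) from 23 fragments. The summit was 704 bp inside the gene, in an intron and 290 bp from the nearest annotated start. The fold enrichment was higher than that of 53.2% of coding genes with a promoter peak, counting the strongest promoter peak of each.

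Irf1 and Irf2 had the 2 highest promoter peaks by fold enrichment. Their intervals lay above that of the promoter peak of Irf3 and met those of the promoter peaks of the other genes. Irf1 (chromosome 11, 53770014 to 53778374) had a peak of 3188 bp over its start with 31 fragments and a fold enrichment of 5.45 (3.76 to 7.67). The summit lay in a UTR 219 bp downstream of the 5′ end. The strongest promoter peak was weaker in 87.2% of coding genes with one. Along the body and just past the end, 3 further peaks had fold enrichments of 3.54, 3.15 and 3.60. Irf2 (chromosome 8, 46739732 to 46847458) had 14 peaks. The one over its start was the widest of the family, at 3727 bp, and the highest, at 5.73 (3.85 to 8.24) from 27 fragments. Its summit was 1798 bp into the first part of the gene, in an intron, and a start site of the noncoding gene Gm16675 lay within 1 kb of the peak. A second wide peak of 3209 bp lay near the 3′ end, with the summit in an intron and a fold enrichment of 4.77 (3.20 to 6.86). The 12 peaks between and around them were narrow, at 308 to 1023 bp, with fold enrichments of 2.65 to 3.98, and 2 of these had a start site of the gene models Gm45479 or Gm31172 within 1 kb.

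Irf8, Irf5 and Irf4, the members known from blood cells, had peaks at several places in the gene. Irf8 (chromosome 8, 120736358 to 120756694), a factor of myeloid and B cells, had 9 peaks. The peak over its 5′ end measured 2174 bp and 5.36 (3.51 to 7.87). A peak of 2871 bp with a fold enrichment of 4.83 (3.07 to 7.27) had its summit 95 bp past an alternative start inside the gene. A peak of 2833 bp and 5.31 (3.45 to 7.86) had its summit 35 bp past another. Both of these summits inside the gene lay in exons of noncoding transcripts of Irf8. The remaining 6 had fold enrichments of 2.59 to 4.34, the highest of them in the UTR at the 3′ end. The annotation places a second gene model, Gm20388, across the whole of Irf8, so that all these summits also fall in its introns. Irf5 (chromosome 6, 29526625 to 29541871), a factor of inflammatory macrophages, had 6 peaks. The strongest, 4.42 (2.75 to 6.78), did not lie at the 5′ end but 97 bp past an alternative start, in a UTR, and the peak over the 5′ end reached 3.76 (2.24 to 5.97). The other 4, of which 1 lay upstream of the gene, had 2.51 to 3.10. Irf4 (chromosome 13, 30749226 to 30766976), a factor of lymphocytes and of adipocytes, had 8 peaks. The promoter peak, 1918 bp wide, reached 3.75 (2.30 to 5.81) with its summit 483 bp into the gene. The strongest was a peak of 1381 bp in the UTR at the 3′ end, at 4.01 (2.46 to 6.21). Between them lay 6 peaks of 2.51 to 3.98.

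**Figure D2:**
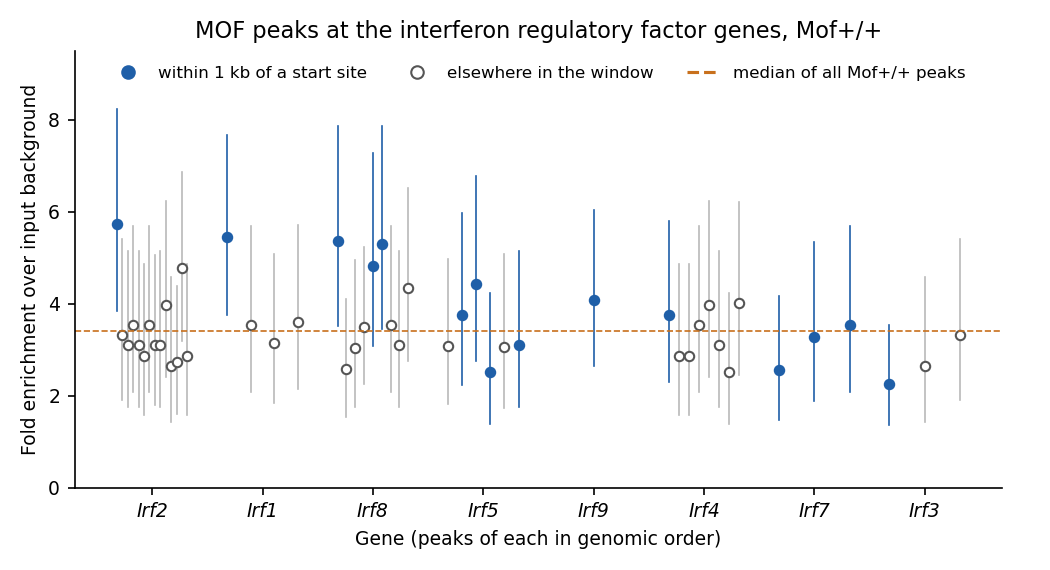
Fold enrichment of all 48 member peaks in the Mof+/+ list. Genes are ordered by their strongest peak and the peaks of a gene are in genomic order. Filled points are promoter peaks, open points are other peaks, vertical lines are exact 95% Poisson intervals of the fragment count and the dashed line is the median of all Mof+/+ peaks, 3.40. The highest points belong to Irf2, Irf1 and Irf8, the lowest is the promoter peak of Irf3, whose interval ends at 3.55, below those of the start peaks of Irf1 and Irf2.

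By the strongest peak, the order of the genes was Irf2, Irf1, Irf8, Irf5, Irf9, Irf4, Irf7 and Irf3, from 5.73 down to 3.32. No neighbours in this order differed beyond counting error, and the intervals met in all 28 pairs of genes, that of Irf2 with that of Irf3 included. Counting promoter peaks alone, Irf3 stayed last, at 2.26 (1.37 to 3.55), and its interval then lay below those of Irf1 and Irf2. In the order above, Irf3 is represented by its peak of 3.32 in Scaf1. For comparison, the strongest promoter peak had a median fold enrichment of 3.98 over all coding genes with one, and 5 of the 8 genes were above it.

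Peaks covered 48.5% of the window of Irf8, 46.5% of that of Irf1, 35.0% of that of Irf7, 31.1% of that of Irf4, 21.5% of that of Irf5, 14.7% of that of Irf3, 12.7% of that of Irf9 and 12.2% of that of Irf2. All 8 values were above 10.2%, the level that 90% of coding genes stayed under. Coding genes with at least 1 peak had a median of 3.97%. At least 2 peaks were found at 7 of the 8 genes, all but Irf9, and at 17.5% of coding genes. At least 8 were found at Irf2, Irf4 and Irf8, and at 1.19% of coding genes. Such numbers were also found at other genes of the lists below, with 27 peaks at Ikzf1, 17 at Ikzf3, 16 at Jak1, 14 at Pax5, 13 at Tcf7 and 8 at Cd2. Length alone gives a gene more room, so each was also set beside the coding genes of 0.5 to 2 times its length. The share of these with at least as many peaks was 37.4% for Irf9, 4.71% for Irf3, 4.41% for Irf7, 2.46% for Irf1, 1.14% for Irf5, 1.06% for Irf2, 0.518% for Irf4 and 0.373% for Irf8. The values are descriptive, since the genes were chosen with results of these data known.

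**Figure D3:**
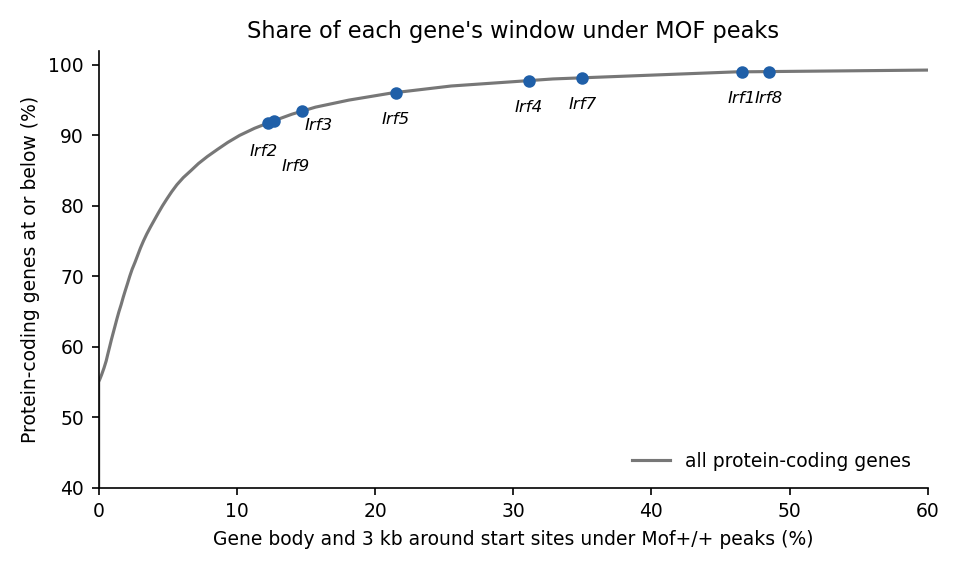
Share of each gene's window, which is the gene body and 3 kb around its start sites, that lay under Mof+/+ peaks. The grey curve gives on the y axis the percentage of all protein-coding genes at or below the share on the x axis. Blue points place the 8 genes on that curve, with Irf2 lowest at 12.2% and Irf8 highest at 48.5%.

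No member peak of the Mof+/+ list overlapped a peak of the Mof+/- list, against 2.44% of all Mof+/+ peaks with an overlap of at least 1 bp. Nor was there a Mof+/- peak near most of these genes. The closest to a start site was 68473 bp from Irf5, at the neighbouring gene Tnpo3 with a fold enrichment of 3.78. The next was 156736 bp from Irf3. For the other 6 genes the distance was 1053900 bp or more. The Mof+/- list held only 716 peaks on these chromosomes. No such distances are given for other coding genes, so these do not set the members apart.

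The Mof+/- list was the shallower one. Its lowest background was 2.26 fragments against 3.52 in the Mof+/+ list, a ratio of 1.56, and its weakest peak had a −log10 p of 4.72 against 3.25. At the lowest Mof+/- background a summit needed 11 fragments, or a fold enrichment of 3.68, to reach that weakest p-value. When fragments and background of each Mof+/+ summit were divided by the ratio of the lowest backgrounds, and fragments rounded down to whole numbers, 30.1% of all Mof+/+ summits, and 11 of the 48 member summits (22.9%), still reached it. These 11 were 5 at Irf8, 2 at Irf2 and 1 each at Irf1, Irf4, Irf5 and Irf9. The highest scaled values of −log10 p were 9.77 at the start of Irf1, 9.68 at the start of Irf2 and 8.33 at the start of Irf8. Just under the limit was the promoter peak of Irf4 at 4.71, and just over it the 3′ peak of the same gene at 5.07. At Irf3 and Irf7 no summit reached the limit, the highest being 3.24 and 3.90. Rounding down lowers the fold enrichment, and the count depended on it. With the nearest whole number 14 member summits and 37.0% of all reached the limit. With the fold enrichment itself kept, 22 member summits (45.8%) and 51.6% of all did, of which 6 were at Irf8, 5 at Irf2, 4 at Irf4, 3 at Irf1, 2 at Irf5 and 1 each at Irf7 and Irf9. Both of these were chosen after seeing the data. No summit counted for Irf3 reached the limit in any of the 3 calculations. The calculation compares 2 lists with no error between animals.

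**Figure D4:**
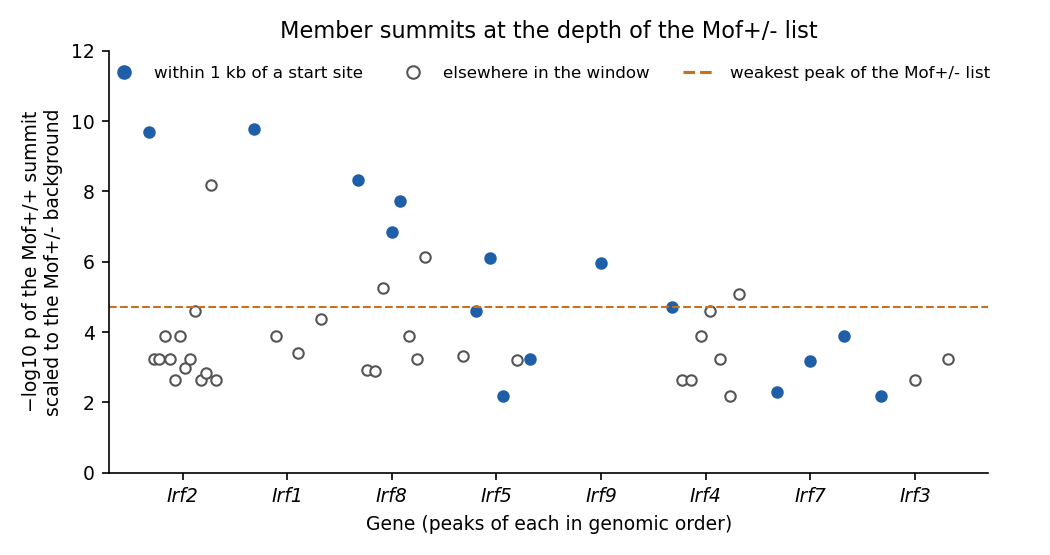
The −log10 p that each of the 48 Mof+/+ summits would have with its fragments and background divided by the ratio of the lowest backgrounds of the lists, fragments being rounded down. Genes are ordered by their strongest peak, filled points are promoter peaks and open points are other peaks. The dashed line is the weakest peak of the Mof+/- list, at 4.72, and 11 points of 6 genes lie above it.

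The genes around the IRF proteins in the interferon pathway were examined by role, from a list of 73 genes. Promoter peaks in the Mof+/+ list were found at 51 of them (69.9%), against 41.0% of coding genes. Of 10 nucleic acid and Toll-like sensors, 7 had one, the strongest at Zbp1 (4.65), a sensor of left-handed nucleic acids, Dhx58 (3.89), Ddx58 (3.76), the RIG-I sensor of viral RNA, and Tlr9 (3.62), the sensor of unmethylated DNA. Of 11 adaptors and kinases between the sensors and IRF3 or IRF7, 9 had one, with a median fold enrichment of 3.98. The interferon genes themselves, Ifnb1, Ifna2, Ifna4 and Ifng, had none, and 3 of these 4 were in the CpG-poorest class. All 6 receptor genes had one, led by Ifngr1 (8.18), Ifngr2 (6.96) and Ifnar2 (6.64), with lower values at Il10rb (5.15), Ifnar1 (3.17) and Ifnlr1 (2.71). All 5 JAK and STAT genes had one, with a median fold enrichment of 5.53, among them the receptor kinase genes Jak1 and Jak2 (each 6.19) and Tyk2 (3.98). All receptor genes for type I and type II interferon thus had a promoter peak in the Mof+/+ list. In the Mof+/- list, 0 of the 6 receptor genes had one. The CpG-poorest class held 7 of the 10 sensor genes and 2 of the 11 adaptor and kinase genes. It held 0 of the 6 receptor genes and 0 of the 5 JAK and STAT genes.

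Of 23 interferon-stimulated genes, 13 had a promoter peak (56.5%), led by Psmb9 (5.44), a subunit of the immunoproteasome, Mx2, Herc6 and Trim25 (each 4.65). The CpG-poorest class held 12 of these 23 genes. Of 6 DNA-binding partners of IRF4 and IRF8, 5 had one: Ikzf3 (8.63), Ikzf1 (6.38), Spi1 (5.53), which encodes PU.1, Spib (4.20) and Batf (2.87), but not Batf3. Of 8 negative regulators, 6 had one, the strongest at Irf2bp2 (8.41), which encodes a corepressor of IRF2, followed by Ptpn6 (5.80), Irf2bpl (5.75) and Socs3 (5.09). In the Mof+/- list, 2 of the 73 genes had a peak in the window. Ikzf3 had 2, both promoter peaks, the higher at 5.20, and Irf2bp2 had 1 at 4.60 that was not a promoter peak. Both genes had stronger Mof+/+ promoter peaks than all 8 IRF genes.

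**Figure D5:**
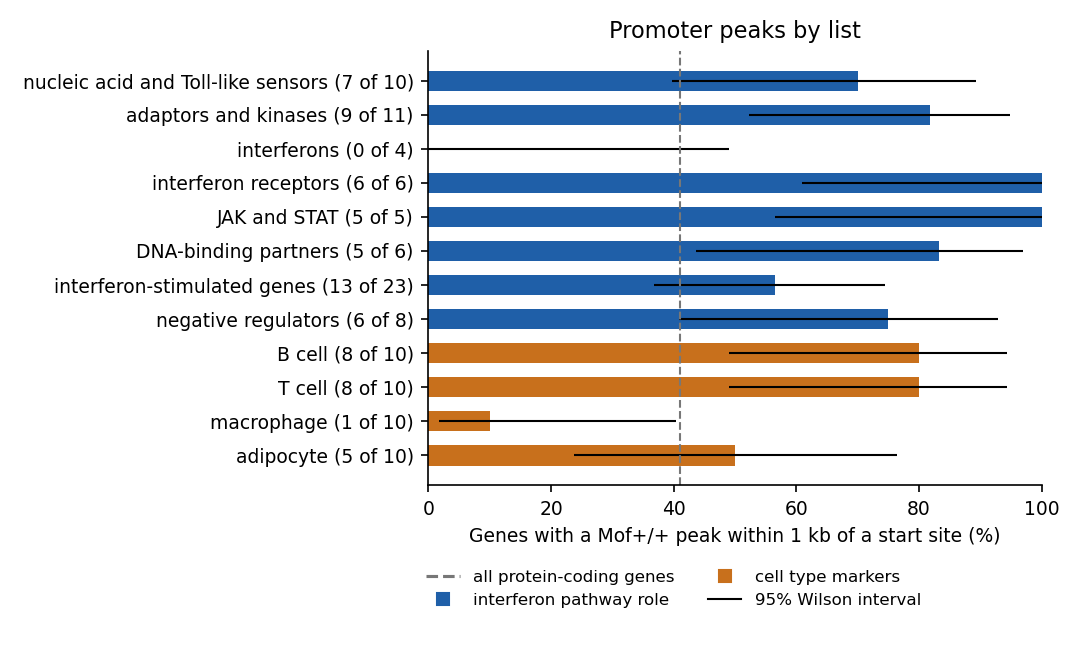
Percentage of genes with a Mof+/+ promoter peak in each role of the interferon pathway (blue) and in marker lists of 4 cell types (orange), with the counts beside each name. Black lines are 95% Wilson intervals and the dashed line is the share of all protein-coding genes, 41.0%. The intervals treat the genes of a list as a random draw. The lists were fixed and chosen with earlier results known, so the intervals are descriptive and give no test against the dashed line. Receptors and JAK and STAT genes reach 100%, interferon genes are at 0 and macrophage markers at 10%.

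Because several IRF genes are typical of immune cells, marker genes were counted the same way. Promoter peaks were found at 8 of 10 B cell markers, 8 of 10 T cell markers, 1 of 10 macrophage markers and 5 of 10 adipocyte markers. In the same order, 6, 5, 8 and 7 of these genes were in the CpG-poorest class. The macrophage marker with a promoter peak was Cd68 (4.87). Cx3cr1 had 4 peaks in the wider window, up to 8.85, and the other 8 had none there. The annotated body of Cx3cr1 is long, chromosome 9 from 119901616 to 120069879. Whether its 4 peaks lie at starts of other genes was not examined, so they cannot be credited to Cx3cr1. Among the B cell markers, the fold enrichment was 7.30 at Cd79b and 5.53 at Pax5, and Pax5 had 3 peaks in the Mof+/- list. Among the adipocyte markers it was 5.09 at Lipe and 3.54 at Plin1, while Pparg, Fabp4 and Cidec had peaks of 2.65, 3.54 and 3.10 outside promoters. The part of lymphocytes in the peaks at Irf4, Irf5 and Irf8 was not tested.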

How the data were processed

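MOF ChIP-seq, H3 ChIP-seq and input libraries, 2 of each per genotype, are described by the labels. The authors mapped reads to GRCm38 with snakePipes and called peaks with MACS2 (2.1.1.20160309.3 per the labels) against input at a q-value of 0.1. The deposited fold enrichment is a ratio, the −log10 values of p and q at the summit are deposited beside it, and so is the summit position. The methods also describe a merging of peaks within 1000 bp, but the lists hold neighbouring peaks closer than that and were taken as they stand. Whether each list pools replicates is not given in the sources used here. Neither list gives library totals. Fragments and background were solved from fold enrichment and p-value with scipy 1.17.1 (tolerance 0.002), which succeeded for 19771 Mof+/+ and 730 Mof+/- peaks, all member peaks included, and was tested on simulated data.

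Genes and start sites are from GENCODE M21, coordinates are GRCm38 counted from 1, and sequence is from GRCm38.p6 and RefSeq. Unplaced scaffolds were left out. The named genes are all 8 members, genes of roles with at most 6 genes, up to 4 of the strongest of longer roles, pathway genes with a Mof+/- peak, and neighbours with a start within 1 kb of a member's peak. Some items that this rule would name are not reported here. Scaf1, Tnpo3, Gm20388 and the markers named were chosen after their values were seen. The members and lists were chosen with earlier results of these data known. No test was run, since each genotype had 1 list. Alternatives changed the window, the q-value, the p-value, the start sites used, the overlap and merging. H3 libraries and signal tracks were not analysed.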

Additional observations from a re-analysis of the deposited data

How the results depend on the processing

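Of 68 alternatives, 63 stayed within 1.5 times the reported value, or within its counting interval for the strongest peak of a gene. Many of the 63 could not have moved, so this count does not measure stability. Absences stay absences under stricter limits, and a wider window loses no peak. For most genes the strongest peak was also the strongest promoter peak. All 8 genes kept a Mof+/+ promoter peak under every choice of window or start sites, and 7 did when q was limited to 0.01 or to 0.001 or at the weakest Mof+/- p-value, where Irf3 lost its own. No alternative gave a Mof+/- peak at these genes. Only the window of 10 kb and the overlap within 1000 bp could have changed that, since the other alternatives could only keep the absence. The 48 member peaks became 22 with q limited to 0.001, 29 at the weakest Mof+/- p-value and 31 when peaks within 1000 bp were merged. The 11 member summits detectable at the Mof+/- depth became 5 when the median Mof+/- p-value was the limit and 22 when the fold enrichment was kept, an alternative chosen after seeing the data. These changes follow from how the alternatives are built. The lists, 1 per genotype, carry no replicate numbers, so they allowed no paired analysis and no replicate could be left out of them. The libraries do carry replicate numbers, but signal tracks were not analysed. With 11 to 31 fragments at a summit, differences between the strongest peaks of the genes were not detectable, while at promoter peaks the interval of Irf3 lay below those of Irf1 and Irf2.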

Other observations

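The surroundings of the genes, up to 100 kb from either end, held 75 further Mof+/+ peaks outside the windows described above. Irf3 had 16 of these, Irf1 13, Irf9 12, Irf2 11, Irf4 9, Irf7 7, Irf8 5 and Irf5 2. Nearly all had another gene's start site as the nearest. The exceptions were 2 at Irf8, with summits 21075 and 56847 bp downstream of its 5′ end and fold enrichments of 3.59 and 2.88, and 1 at Irf4, 20728 bp downstream with 2.75. Around Irf1, the highest was a peak 6299 bp upstream of the 5′ end with a fold enrichment of 6.19, above the peak at the Irf1 start. The nearest start site to it was that of the microRNA gene Mir7671. Downstream of Irf2, past the wide 3′ peak, another peak reached 5.10. In the same surroundings the Mof+/- list held 1 peak, that at Tnpo3 beside Irf5, where the Mof+/+ list had a peak of 5.09.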
